A study of Tetranychus urticae with 8 samples.

Results

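Among the 17654 gene IDs counted in adult two-spotted spider mites (Tetranychus urticae), 101 combined a middling read share in males with a mean at least 16 times higher in males than in females. They were chosen by the measured values themselves, in CPM (each count divided by its library's total and scaled to a common total). A member had a male mean from 20 to under 200 CPM, a male mean at least 16 times the female mean, and more than 3 reads over the 4 female libraries. Its highest male library was less than 3 times its lowest, its ID ended in 0, and its ID did not begin with tetur09g. The difference between the sexes is therefore a property of the choice. It is described below without a test.

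The study set adult males against adult females of the strain London, all fed on detached leaves of common bean. The 4 male libraries each held the RNA of about 800 whole bodies collected at 1 to 2 days of adult age, and the 4 female libraries that of about 200 whole bodies at 3 days. The effects of age, pool size and sex therefore cannot be told apart. Libraries were strand-specific and oligo dT selected. Nothing in the labels ties the replicate libraries of a sex to separate cultures, and their spread may be in part technical. They held 12082575 to 21414612 reads on genes, so that 3 reads correspond to 0.140 to 0.248 CPM in 1 library. Over all 4 female libraries together, 3 reads correspond to 0.0522 CPM. Such limits cover counting error only.

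Spider mites are haplodiploid: an unfertilized egg becomes a haploid male and a fertilized egg a diploid female. Adult males are small and short-bodied, search for females that are about to moult, guard them and mate with them. In whole-body profiles of animals, genes with a strong excess in males are often those of the testis, the sperm and the male accessory glands, as general background. Here 0 of the 101 IDs, and 0 of all 17654, occurred in the gene table used, and the files pair no ID with a name. No role is therefore given to any member, and its ID serves as its address. The whole-body label could not be checked against marker genes for the same reason. In bulk RNA of this kind, fewer cells of a type and less RNA per cell cannot be told apart.

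All 101 genes passed the filter on low counts, and all were called higher in males by edgeR's quasi-likelihood test (Benjamini-Hochberg adjusted p below 0.05 and at least 2-fold), against 30.5% of the 12885 tested genes. A ratio of means of at least 16 was found for 3.87% of the tested genes. Since the choice used this contrast, these counts describe it and show nothing further. The fitted log2 difference, male minus female, had a median of 4.97 and ran from 4.02 to 10.56. Its median over all tested genes was 0.05. The standard errors computed for the members ran from 0.0718 to 0.431. These are too small where female reads are very few. For tetur30g01940, with 4 female reads, the value was 0.145 on a log2 difference of 10.56. Counting error alone gave its ratio of pooled reads an exact interval of 652 to 6133. In every one of the 101 genes the lowest male library stood above the highest female library, by at least 11.2 times and by a median of 22.4 times. Every male library stood above every female library in 44% of all tested genes. The narrowest gap belonged to tetur30g01760, whose male libraries 1 to 4 had 34.3, 37.5, 28.5 and 34.6 CPM and whose female libraries had 1.61, 1.31, 1.94 and 2.55 CPM.

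**Figure D1:**
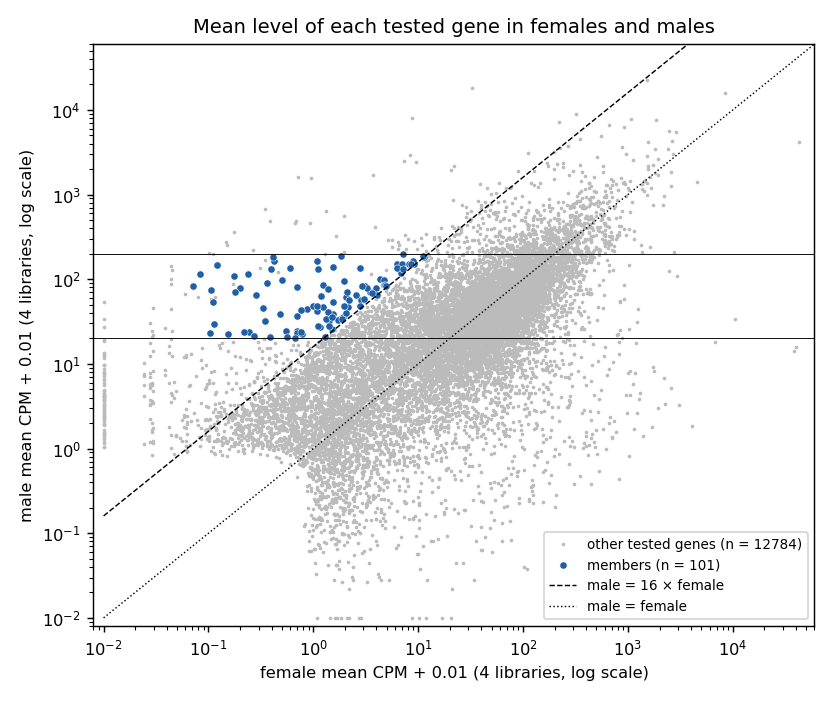
Mean CPM of each of the 12885 tested genes in the 4 female (x axis) and 4 male libraries (y axis), both on log scales after adding 0.01 CPM; blue points are the 101 members, the horizontal lines mark 20 and 200 CPM in males and the dashed line a male mean of 16 times the female mean. The members fill the corner between these lines from 0.0607 to 11.3 CPM in females. Of the 101, 51 lie at 16- to 32-fold, nearest the dashed line.

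Together the members held 484674 of the 62804066 male reads and 13004 of the 57493789 female reads. Their summed level was 7780, 7653, 7779 and 7701 CPM in male replicates 1 to 4, a mean of 7728 ± 62 CPM (SD, n = 4), or 0.773% of the reads. In female replicates 1 to 4 the sum was 227, 211, 253 and 215 CPM, a mean of 226 ± 19 CPM (SD, n = 4), or 0.0226% of the reads. The ratio of the summed levels was 34.1. The coefficient of variation of the sum was 0.806% in males and 8.48% in females. The small value in males is in part a product of the choice, since the rule removed genes that varied 3-fold or more among male libraries. With the 7 genes removed by that limit alone put back, an alternative chosen after the values were seen, the male sum was 9025, 8265, 9183 and 7968 CPM in replicates 1 to 4. Its coefficient of variation was then 6.81%.

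The read share of a gene depends on its length, and lengths were not used here, so the order of members by CPM is one of reads and not of transcript number. Male means ran from 20.1 to 197 CPM, with a median of 64.9 and quartiles of 35.9 and 110 CPM. The 10 members with the most reads held 22.4% of the male sum. Female means ran from 0.0607 to 11.3 CPM with a median of 1.37 CPM, and the 10 members highest in females held 37.7% of the female sum. Of these 2 lists of 10, 6 genes were on both.

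The gene that took the most male reads was tetur11g05020. It had 206, 156, 204 and 223 CPM in male replicates 1 to 4 and 9.80, 6.46, 7.67 and 4.74 CPM in female replicates 1 to 4, a ratio of means of 27.5. Male replicate 2 was the lowest male library and female replicate 1 the highest female library, and the sexes stayed far apart. The next was tetur24g01580, with 179, 180, 177 and 208 CPM in males and 10.7, 11.5, 13.7 and 8.56 CPM in females. Its ratio of 16.8 was among the lowest. The third was tetur07g04330, with 202, 190, 189 and 162 CPM in males but only 1.66, 1.85, 1.78 and 2.05 CPM in females. These 3 genes had similar male read shares, but the ratio of the third was 101.2.

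The ratio of the male to the female mean varied widely among members. It ran from 16.1 to 1611 with a median of 30.9 and quartiles of 20.3 and 101.2. Close to the threshold lay 51 members at 16- to 32-fold (50.5%), followed by 18 at 32- to 64-fold, 18 at 64- to 256-fold and 14 at 256-fold or more. The limit on female reads cuts the upper end of this range. Among the 12 genes that it alone kept out, the lowest ratio was 688 (tetur21g02950), and tetur01g06790 had 0 female reads. The same limit caps the ratio lower for members with a lower male mean. The 51 members of the lowest class held 84.9% of the female reads of the set, measured as summed CPM, and 50.5% of the male sum. The 14 of the highest class held 19.4% of the male sum and 1.15% of the female sum. Expressed the other way, the female level was 0.0621% to 6.20% of the male level, with a median of 3.23%.

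The 3 genes with the highest ratios of means were almost without reads in females. The gene tetur30g01940 had 121, 115, 113 and 116 CPM in the male libraries and 1, 2, 1 and 0 reads in the female libraries. All 4 male libraries lay within a narrow band, and 1 female library had no read. The ratio of means was 1611, and the ratio of pooled reads was 1670 with a 95% exact counting interval of 652 to 6133. For tetur10g02160, with 83.2, 77.1, 90.4 and 77.6 CPM in males and 3, 0, 0 and 1 reads in females, the ratio of means was 1352 (pooled ratio 1166, interval 455 to 4281). For tetur02g06480, with 144, 149, 157 and 139 CPM in males and 0, 1, 2 and 3 reads in females, it was 1327 (pooled ratio 1409, interval 647 to 3842). These intervals overlap widely, so the order of the 3 is not resolved at this depth. Nor is their place at the top: tetur01g04970, the next by ratio of means at 1311, had a pooled ratio of 1411 (interval 648 to 3845).

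At the other end stood tetur01g05740 and tetur24g01970. The former had 181, 140, 206 and 205 CPM in males and 12.04, 10.1, 12.2 and 11.1 CPM in females, a ratio of 16.1. It was the member with the highest level in females, with 655 reads over the 4 libraries. The latter had 21.4, 21.9, 19.5 and 19.8 CPM in males and 1.03, 1.08, 1.55 and 1.42 CPM in females, a ratio of 16.3. These 2 genes have nearly the same ratio at read shares that differ from 183 to 20.6 CPM in males.

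**Figure D2:**
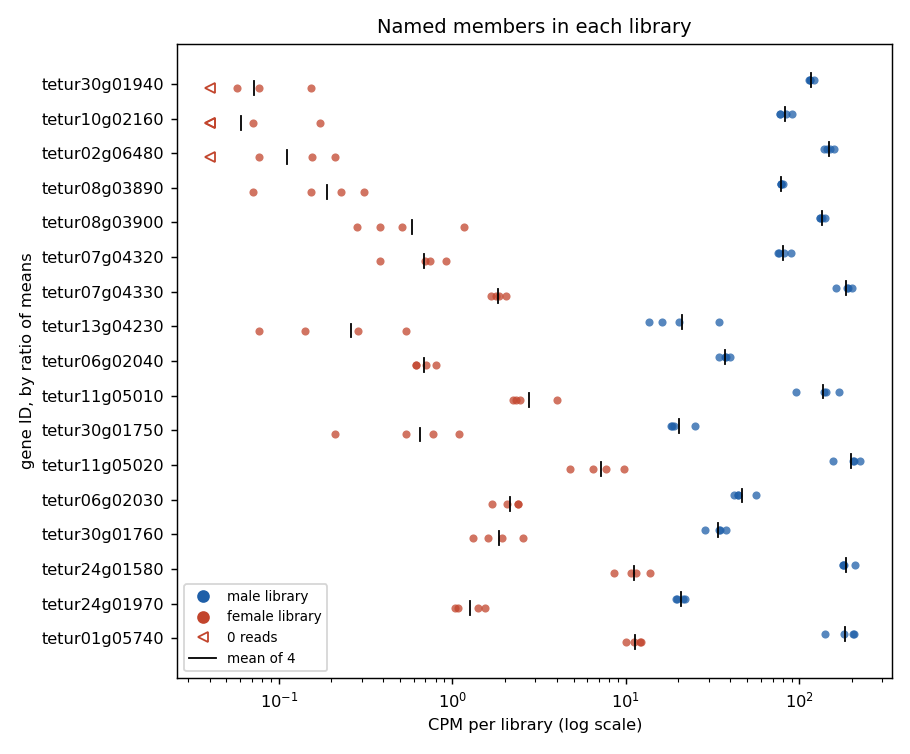
CPM in each library (x axis, log scale) of the 17 members named by a fixed rule, ordered by ratio of means; blue points are male libraries, red points female libraries, open triangles libraries with 0 reads, and black bars the mean of 4. Male points run from 13.6 to 223 CPM over all 17 and are widest apart for tetur13g04230 (13.6 to 34.4 CPM), while female points spread from 0 reads to 13.7 CPM and never reach the male points of the same gene.

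The rule removed genes with 3 or fewer female reads, 12 of them by that condition alone, so some level in females was required of every member. A read was found in every female library for 91 of the 101, and 10 had no read in at least 1 female library. The female reads over the 4 libraries had a median of 79, 41 members had at least 100, and 11 had at most 10. The source of these reads was not tested.

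The edges of the selection show how gradual it is. The lowest male mean inside was 20.1 CPM for tetur30g01750, and the nearest gene outside was tetur19g03270 at 19.9 CPM, with 122 genes kept out by that limit alone. At the upper limit tetur11g05020 (197 CPM) was inside and tetur20g00470 (201 CPM) outside, and 63 genes failed it alone. The ratio limit separated tetur01g05740 at 16.1 from tetur27g00320 at 15.6, and 5029 genes of the same male read share failed it alone.

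The limits on female reads and on the male range removed fewer genes. With 4 female reads tetur30g01940 was inside, and with 3 female reads tetur23g01500, at 66.9 CPM in males, was outside. In all 12 genes failed that limit alone. The widest male range inside was 2.53 for tetur13g04230, and the narrowest outside 3.60 for tetur19g00760, 1 of 7 genes kept out by it. The conditions on the ID kept out 4 genes whose ID does not end in 0, tetur02g15135, tetur05g09555, tetur12g04687 and tetur16g03865, which had 61.6, 58.4, 24.2 and 57.7 CPM in males. They also kept out tetur09g05950, tetur09g06570 and tetur09g07350, with 197, 129 and 88.8 CPM in males.

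Male libraries lay close to one another, within what the 3-fold limit allowed. The highest male library was 1.17 times the lowest at the median, with quartiles of 1.12 and 1.26, and under 1.25 times in 74 members. The steadiest was tetur08g03890, with 79.9, 78.1, 78.0 and 78.0 CPM in male replicates 1 to 4. That spread, a chi-square of 0.169 per degree of freedom, was within counting error. Over the set the same chi-square had a median of 4.51 in males, above the value of 1 that counting error gives, and 69 members exceeded its 95% point of 2.60. The biological coefficient of variation, edgeR's estimate of the spread beyond counting, had a median of 0.0700 for the members among male libraries. It was 0.0645 for the 5331 other tested genes of 20 to under 200 CPM in males. That difference was not tested, since the rule limits the range.

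The 11 members with a male range of 1.5 or more did not vary in a single way. In 4 of them, tetur06g04450, tetur16g03330, tetur27g00090 and tetur31g00830, male replicate 3 was the highest and male replicate 4 the lowest. In 5 others, tetur01g16030, tetur11g05010, tetur13g04230, tetur22g02810 and tetur58g00090, male replicate 4 was the highest. The remaining 2 were tetur01g15250, highest in male replicate 1, and tetur32g00050, highest in male replicate 2. These 11 were listed after their values were seen.

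The widest range was that of tetur13g04230, with 16.1, 13.6, 20.3 and 34.4 CPM in male replicates 1 to 4 and 0.287, 0.0769, 0.542 and 0.141 CPM in females. When male replicate 4 was left out, its male mean fell below the limit of 20, to 16.7 CPM, and its ratio was 63.6 in place of 80.6. The second widest was that of tetur58g00090, with 30.3, 32.5, 31.0 and 59.4 CPM in males. There 3 libraries lay together and male replicate 4 stood alone. Without it the male mean was 31.3 ± 1.2 CPM (SD, n = 3) in place of 38.3 ± 14.1 CPM (SD, n = 4).

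The median level over the set was similar in the male libraries, although single members differed. Relative to the gene's own male mean, male replicates 1 to 4 had median levels of 1.01, 0.995, 1.00 and 0.985. The number of members that were highest in a library was 22, 25, 33 and 21, and the number lowest was 13, 22, 31 and 35.

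**Figure D3:**
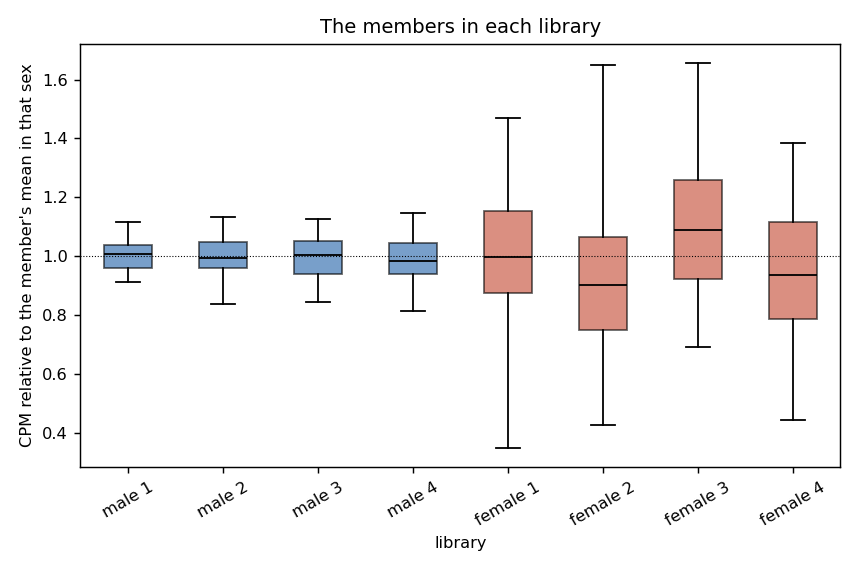
CPM of the 101 members in each library relative to the gene's own mean over the 4 libraries of that sex (y axis, linear); boxes show quartiles and median, whiskers the 5th to 95th percentile. Male boxes, whose spread the rule limits, have medians of 0.985 to 1.01, and the wider female boxes have medians of 0.901 to 1.09 and the highest in female replicate 3.

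Among female libraries, replicate 3 held the most member reads for its depth. The median level relative to the gene's own female mean was 0.996, 0.901, 1.09 and 0.935 in female replicates 1 to 4. Female replicate 3 was the highest of the 4 for 40 members, against 23, 20 and 18 for replicates 1, 2 and 4, and 66 members were above their female mean there. The summed level was 1.12 times the female mean, and also 1.12 times without the 10 members highest in females. The rule used the mean and the summed reads of the 4 female libraries and set no limit on the spread among them. The pattern was noticed after the values were seen and was not tested.

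Other genes moved the same way in that library, to a smaller degree. Tested genes were taken at under 12 CPM in females, which covers all members. In female replicate 3 the 2688 other genes called higher in males summed to 1.06 times their female mean, and the 2441 genes not called higher in males to 1.02 times. Within classes of female level the members stood at 1.15 times (12 members under 0.2 CPM), 1.10 times (27 at 0.2 to 1 CPM), 1.13 times (38 at 1 to 3 CPM) and 1.12 times (24 at 3 to 12 CPM). In female replicates 1, 2 and 4 the members stood at 0.650, 1.14 and 1.05 times in the lowest of these classes and at 1.15, 0.859 and 0.897 times in the second. Replicate 3 was thus nearly matched by replicate 2 in the lowest class and was below replicate 1 in the second. In the third they stood at 1.00, 0.920 and 0.944 times and in the highest at 0.988, 0.941 and 0.955 times. The other genes called higher in males stood at 1.09, 1.06, 1.08 and 1.05 times in replicate 3 over the same 4 classes. The lowest class of members rests on 16, 21, 21 and 21 reads in female replicates 1 to 4. Female replicate 3 had 12912850 reads on genes, close to the 12999718 of female replicate 2, in which the members' sum was 0.931 times the mean. Without female replicate 3 the female sum was 217 CPM and 105 genes met the rule, of which 100 were among the 101.

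**Figure D4:**
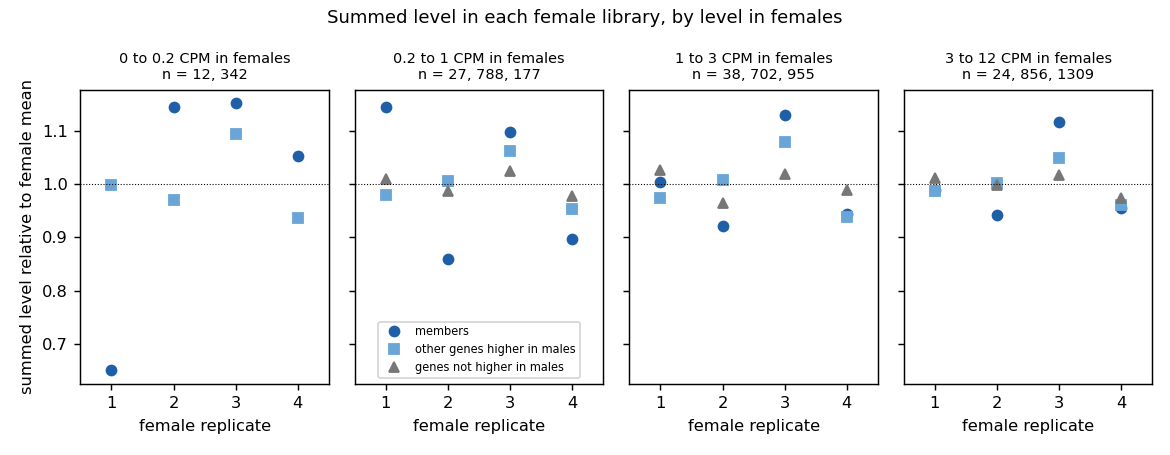
Summed CPM in each female library relative to the mean of the 4 (y axis), by female replicate (x axis) and by class of female mean CPM (panels); circles are members, squares other genes called higher in males, triangles tested genes not called higher in males, with the numbers of genes in this order above each panel. Members stand at 1.10 to 1.15 in replicate 3 in every panel; the first panel has no triangle.

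For single members the female reads were mostly too few to show more than counting error. The female chi-square per degree of freedom had a median of 1.13, and 17 members exceeded the 95% point of 2.60. The highest was that of tetur16g03330, named after its values were seen, with 0.803, 0.769, 3.72 and 0.778 CPM in female replicates 1 to 4. Female replicates 1, 2 and 4 agreed closely and replicate 3 was several times higher. Its male libraries had 56.6, 44.8, 68.3 and 44.1 CPM. The ratio of means was 35.2 with all libraries and 68.2 without female replicate 3.

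The members were spread over many scaffolds. In the naming scheme of this genome the digits before the g stand for a scaffold and those after it for the order along it, as background. The files give no coordinates, so distances are unknown. The 101 IDs carried 35 different leading parts, of 192 among the tested genes, and 13 parts had a single member. The most members were in tetur01 and tetur30 (8 each), tetur06 (7), tetur02 and tetur13 (6 each), and tetur05 and tetur07 (5 each). In proportion to size tetur30 stood first among parts with at least 100 tested genes, with 4.68% of its 171 tested genes, against 2.35% for tetur32 and 0.784% over all tested genes.

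The 8 members in tetur30 covered nearly the whole range of ratios. Together they summed to 631 ± 13 CPM over the male libraries and to 8.09 ± 1.26 CPM over the female ones (SD, n = 4). Of the 8, 3 were above 256-fold: tetur30g01650, tetur30g01940 and tetur30g02090. The gene tetur30g01650 had 174, 185, 182 and 182 CPM in males and 0.573, 0, 0.697 and 0.354 CPM in females, a ratio of 445. For tetur30g02090 the values were 139, 131, 121 and 133 CPM in males and 0.344, 0.462, 0.310 and 0.424 CPM in females, a ratio of 340.

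The other tetur30 members had lower ratios. They were 30.9 for tetur30g00920, 39.4 for tetur30g01370, 30.8 for tetur30g01750, 18.2 for tetur30g01760 and 29.1 for tetur30g02300. Of the 170 tested tetur30 IDs that end in 0, 65 (38.2%) were called higher in males, against 30.5% of all tested genes. Other leading parts had like shares over all their tested genes, 37.6% in tetur22 and 36.7% in tetur06. Called higher in females were 35 (20.6%), against 26.9% of all tested genes. At least 16-fold were 13 of them (7.65%, against 3.87%), of which 8 were the members. The other 5 were tetur30g00250, tetur30g01380, tetur30g01790, tetur30g01880 and tetur30g02200, which had 601, 3.55, 256, 276 and 1207 CPM in males. The rule puts every member at 16-fold, and tetur30 was singled out for its members. That choice raises its share at 16-fold and its share called higher in males, so no excess beyond the members can be read from them. The scaffold also held strong differences of the opposite direction: tetur30g01730, at place 152 in the ID order and 2 places before the member tetur30g01750, had 445 CPM in females and 0.376 CPM in males. These scaffold counts were made after the values were seen and were not tested.

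**Figure D5:**
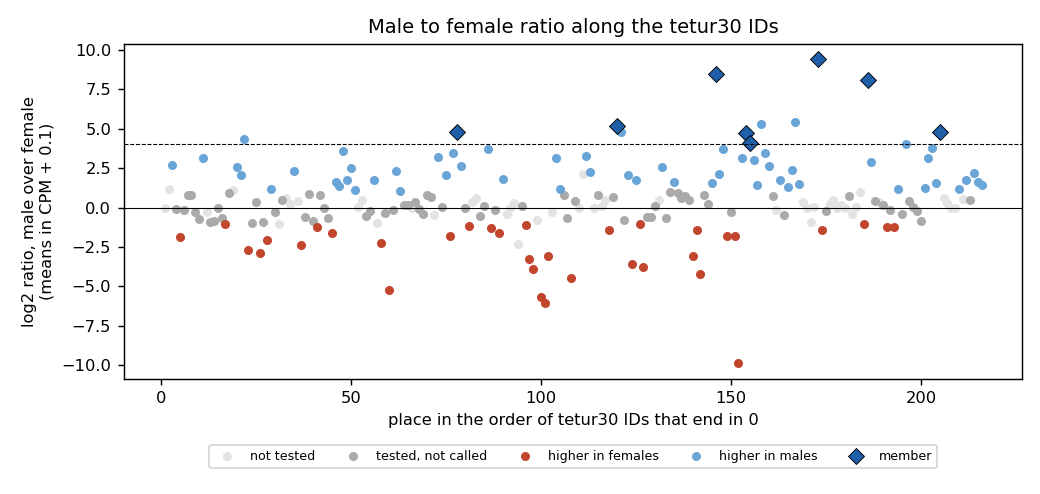
The log2 ratio of the male to the female mean (y axis, after adding 0.1 CPM to both) of the 216 tetur30 IDs that end in 0, by place in the ID order (x axis, not distance); diamonds are the 8 members, colours show the edgeR call, and the dashed line marks a ratio of 16. Members lie at places 78 to 205, with the highest at 9.40, among genes of both directions.

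Members stood next to each other in the ID order 5 times. The pair tetur08g03890 and tetur08g03900 had ratios of 411 and 229. For tetur08g03900 the male libraries had 134, 131, 141 and 131 CPM and the female libraries 0.516, 0.385, 1.16 and 0.283 CPM. The pair tetur07g04320 and tetur07g04330 had ratios of 117 and 101, with 81.0, 75.6, 89.0 and 75.9 CPM for tetur07g04320 in males and 0.745, 0.385, 0.697 and 0.920 CPM in females. The ratios of the first pair thus differed 1.80-fold and its male means 1.71-fold, while in the second pair the ratios were closer than the male means of 80.4 and 186 CPM. In neither of these pairs was the same male library the highest for both genes. For the first pair this shows no difference in pattern, since the male libraries of tetur08g03890 differed only within counting error.

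In tetur11g05010 and tetur11g05020 the patterns over the male libraries were similar. The former had 139, 96.1, 143 and 169 CPM in male replicates 1 to 4 and 4.01, 2.46, 2.25 and 2.33 CPM in females. Both genes were lowest in male replicate 2, highest in male replicate 4 and highest among females in female replicate 1. Their ratios were 49.4 and 27.5. Whether near-identical copies share reads could not be examined, since how multiply matching reads were counted is not given in the sources used here.

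The other 2 pairs had lower levels. The gene tetur06g02030 had 42.0, 56.1, 44.3 and 44.0 CPM in males and 2.06, 1.69, 2.401 and 2.405 CPM in females, a ratio of 21.8. Its neighbour tetur06g02040 had 37.2, 39.9, 37.6 and 34.3 CPM in males and 0.803, 0.615, 0.620 and 0.707 CPM in females, a ratio of 54.3. Both were highest in male replicate 2. In the pair tetur30g01750 and tetur30g01760 male replicate 2 was again the highest of both, with 19.0, 24.9, 18.2 and 18.5 CPM for tetur30g01750. Its female libraries had 1.09, 0.769, 0.542 and 0.212 CPM.

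Genes beside a member were called higher in males more often than tested genes at large. The neighbours that were no member, 1 place to either side, numbered 191, of which 152 were tested. Of these, 67 (44.1%) were called higher in males, against 30.5% of all tested genes, and 34 (22.4%) higher in females, against 26.9%. A ratio of at least 16 was found in 16 of them (10.5%), against 3.87% of all tested genes. Within 5 places the shares were 32.5% higher in males, 24.4% higher in females and 4.51% at 16-fold, over 710 tested genes. This wider window includes the genes 1 place away, which raise its shares higher in males and at 16-fold. It therefore does not show an excess at the farther places. Neighbouring genes are not independent of one another, and these differences were not tested.

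Of the 16 neighbours at 16-fold or more, 10 were under 20 CPM in males and tetur32g01860 and tetur43g00520 were above 200 CPM. The remaining 4, tetur01g04980, tetur01g06790, tetur02g06490 and tetur07g03170, were within the level of the members but had at most 3 female reads. Counting members and others alike, 26 of the 101 members had such a neighbour. The like share over all tested genes is not given here, so this count shows no excess by itself.

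Several of the members with the fewest female reads stood beside genes with fewer still. In a stretch of 6 places from tetur02g06480 to tetur02g06560, all 5 tested genes were at least 16-fold higher in males. Its 2 members at the ends, tetur02g06480 and tetur02g06560, had 6 and 9 female reads. Between them tetur02g06490 and tetur02g06500 had 45.1 and 143 CPM in males with 2 female reads each. The fifth, tetur02g06520, had 4.496 ± 0.217 CPM in males and 0 female reads, which makes it at least 85.7-fold higher in males when 3 reads over the female libraries are allowed. The stretch summed to 450 ± 22 CPM in males (SD, n = 4) and to 19 reads in the 4 female libraries. The gene tetur02g06560 had 102, 109, 119 and 112 CPM in male replicates 1 to 4.

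Likewise tetur01g04970, with 138, 155, 133 and 156 CPM in males and 0, 1, 2 and 3 female reads, stood beside tetur01g04980, with 127 ± 11 CPM in males and 2 female reads. The member tetur07g03160, with 75.4, 74.6, 77.9 and 68.0 CPM in males and 0, 3, 1 and 1 female reads, stood beside tetur07g03170, with 101 ± 4 CPM in males and 2 female reads. In both pairs the limit on female reads kept out the neighbour. These stretches were singled out after their values were seen.

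Ratios in 2 comparable sets are given here without a test. The same rule at 200 CPM or more in males held 63 genes with a median ratio of 28.3 and quartiles of 19.6 and 103. Of these, 27.0% were at 64-fold or more, against 31.7% of the members. At 256-fold or more the order was reversed, with 19.0% of these genes against 13.9% of the members. The limit on female reads allows higher ratios at higher male read shares, so the 2 sets could not reach the same ratios. With the sexes exchanged the rule held 240 genes, with a median ratio of 35.3 and quartiles of 21.8 and 121. Of these 240, 31.7% were at 64-fold or more and 12.1% at 256-fold or more. The exchanged rule thus held 240 genes against the 101 members, with medians in the lower sex of 1.71 and 1.37 CPM. Both counts depend on the conditions on ID, reads and range. Without these conditions 131 genes had the male read share and the ratio of the members, and the like number for females is not given here.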

How the data were processed

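Whole bodies of 4 male and 4 female pools were profiled by RNA sequencing. The deposited values are raw counts of reads per gene ID, with 1 column per library and no normalization, per the file headers. The submitters' processing notes name STAR 2.4.1d and HTSeq 0.6.1. Their settings, the genome build and the annotation were not given in the sources used here. Columns were assigned to samples by the name in each description, and samples to a sex by title. The table had 0 columns left unused.

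CPM values are counts over column sums. Males and females were compared in edgeR 4.0.16 (R 4.3.3) by the quasi-likelihood test with sex as the only term, TMM scaling and filterByExpr, over 12885 genes, with Benjamini-Hochberg adjustment. The fit was tried on simulated data with 50 genes changed at each of 1.5-, 2-, 4- and 16-fold. Calls there used adjusted p below 0.05 from the same test, with no limit on the fold. Recovered were 32, 46, 48 and 48 genes, and 16 of all 190 calls were false. Intervals of pooled ratios are exact binomial and cover counting error only. Members and lists were chosen with earlier results of these data known. Named are the 3 members with the highest male mean, the 3 with the highest and 2 with the lowest ratio, the narrowest and widest male range, genes at each threshold, and adjacent members; others are said to be named after their values were seen. The planned lists of gene functions could not be filled, since no ID could be matched to a name. Libraries of a sex differed by more than sampling noise (chi-square per degree of freedom of 3.46 to 21.2). Alternatives were other scalings and filters, DESeq2 1.42.0, limma-voom 3.58.1, a replicate block and leaving out each library.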

Additional observations from a re-analysis of the deposited data

Results flagged for a closer look

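In 7 groups of 4 libraries a single library lay far from the other 3, by a gap above Dixon's 95% limit, among the members described by name. Over all 101 members this held for 14 of 202 groups, 7 in males and 7 in females, and chance gives about 1 in 20 groups. In males the values were 208 CPM for tetur24g01580 in replicate 4 (others 177 to 180), 59.4 CPM for tetur58g00090 in replicate 4 (others 30.3 to 32.5), 24.9 CPM for tetur30g01750 in replicate 2 (others 18.2 to 19.0) and 56.1 CPM for tetur06g02030 in replicate 2 (others 42.0 to 44.3). The fifth, 79.9 CPM for tetur08g03890 in male replicate 1 (others 78.0 to 78.1), is a gap within counting error. In females they were 4.01 CPM for tetur11g05010 in replicate 1 (others 2.25 to 2.46) and 3.72 CPM for tetur16g03330 in replicate 3 (others 0.769 to 0.803). Without the library concerned, tetur30g01750 had a male mean of 18.6 CPM, below the limit of 20, and tetur16g03330 a female mean of 0.783 CPM in place of 1.52 CPM. The cause of these gaps was not tested.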

How the results depend on the processing

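All 101 members kept their call in each of the 16 alternatives to the edgeR test, and all 17 named members their direction, as the choice of members largely fixes. The median fitted log2 difference was 4.93 to 5.03 in 7 of the alternatives other than leaving out a library, and 5.18 with upper quartile scaling, which also moved the median of all tested genes from 0.05 to 0.27. It was 4.93 to 5.06 as single libraries were left out. The number of genes that met the rule was 101, 100 and 116 with TMM, DESeq2 size factor and upper quartile scaling, of which 101, 99 and 98 were among the 101. It was 95 to 108 as single libraries were left out, with 94 to 100 shared. The male sum was 7667 CPM at the lowest and 8351 CPM with upper quartile scaling, and 7711 to 7753 CPM without 1 library. Without the limit on the male range, a setting added after the values were seen, it was 8610 CPM over 108 genes. The female sum ranged from 210 CPM with upper quartile scaling to 232 CPM without female replicate 2. Without the limit on the male range it was 235 CPM. The replicate numbers did not pair the libraries: deviations of same-numbered libraries correlated at -0.0926 to 0.0351, and for 1 of 8 libraries the closest was its own number. The replicate block left all 101 members called, with a median of 4.98. Depth limits the ratio of members with few female reads.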
